A study of Sus scrofa with 8 samples.

Results

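OGN+ connective tissue cells were taken from pig somite and myotome tissue and chosen by raw UMI counts, as barcodes with at least 1 UMI (unique molecular identifier, a counted RNA molecule) of OGN and at least 3 UMIs of COL1A2, and with none of TNMD, MATN4, ACAN and ZIC4. OGN encodes osteoglycin, a small leucine-rich proteoglycan of the extracellular matrix, and COL1A2 encodes a chain of type I collagen. The 4 genes required at 0 mark tendon (TNMD), cartilage (MATN4 and ACAN) and another mesenchymal population (ZIC4). The barcodes also had to hold at least 200 genes, at most 30000 UMIs and at most 10% of UMIs on 13 mitochondrial genes. The rule found 8931 cells among 82394 barcodes that passed these limits, of 90688 in the deposited matrices. These 6 genes chose the cells, so their levels, and the shares of cells that met the rule, are given as a description and were not tested.

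The study profiled single cells of pig embryos with the 10x Genomics Chromium system to follow the formation of skeletal muscle. Somite tissue was taken at embryonic day (E) 16, E18 and E21 and myotome tissue at E28, from Tibetan pigs (ZZ) and from DurocxTibetan pigs (DZ). Each of the 8 libraries, named by stage and breed from E16-ZZ to E28-DZ, pooled 5 embryos of a single sow, with no drug or genetic change in any group. Each stage and breed thus had 1 library, the libraries served as replicates, and p-values measure only the spread between them. E28 was the only stage sampled as myotome, so stage and tissue cannot be told apart there. The same holds for sow and library.

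Somites give rise to the muscle, cartilage, tendon and dermis of the trunk. Connective tissue fibroblasts of this origin surround and guide the growing muscle, and secrete collagens together with proteoglycans such as osteoglycin, decorin and lumican, which bind collagen and set the width and spacing of its fibrils. OGN lies in a cluster with the related genes OMD (osteomodulin), ASPN (asporin) and ECM2, which have been kept together in vertebrate evolution.

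In RefSeq's annotation of Sscrofa11.1, the build named in the study's methods, OGN is on chromosome 3 from 42116521 to 42135940 on the minus strand. OMD (42142603 to 42155032), ASPN (42165553 to 42192902) and ECM2 (42205246 to 42243746) follow on the same strand, with 6662, 29612 and 69305 bases between each of them and OGN. All of these genes lie inside the span of CENPP (42053074 to 42309745), a centromere protein gene on the other strand. The intron of CENPP from 42106026 to 42180782 holds OGN and OMD whole. The promoters of OGN, ASPN and OMD are shown because the genes are neighbours. In OGN+ cells ASPN was called higher at E28 than at E21 and OMD was not called, while the rule set the level of OGN. Each runs from 250 bases before to 50 bases after the start of the gene, was read from the minus strand of the Sscrofa11.1 genome, and has the letters TATAAA in capitals where they occur on either strand (as TTTATA when on the other). The positions are chr3:42135891-42136190 for OGN, chr3:42192853-42193152 for ASPN and chr3:42154983-42155282 for OMD.
OGN: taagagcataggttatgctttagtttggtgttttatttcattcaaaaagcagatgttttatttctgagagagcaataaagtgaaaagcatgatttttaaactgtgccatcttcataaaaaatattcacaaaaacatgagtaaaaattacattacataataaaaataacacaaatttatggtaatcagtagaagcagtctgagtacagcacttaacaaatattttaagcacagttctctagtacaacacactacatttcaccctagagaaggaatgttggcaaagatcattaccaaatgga
ASPN: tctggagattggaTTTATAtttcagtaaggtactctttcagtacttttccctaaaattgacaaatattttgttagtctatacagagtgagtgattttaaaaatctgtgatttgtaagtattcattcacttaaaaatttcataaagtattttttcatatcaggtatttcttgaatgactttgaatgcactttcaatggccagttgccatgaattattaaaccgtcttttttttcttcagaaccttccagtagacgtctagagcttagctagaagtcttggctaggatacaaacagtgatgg
OMD: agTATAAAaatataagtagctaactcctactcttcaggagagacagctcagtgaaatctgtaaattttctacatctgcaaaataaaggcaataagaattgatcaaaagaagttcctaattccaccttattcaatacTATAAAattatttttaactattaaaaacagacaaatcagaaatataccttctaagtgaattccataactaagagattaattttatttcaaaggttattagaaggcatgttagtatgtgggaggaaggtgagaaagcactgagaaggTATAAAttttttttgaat
TATAAA matched 3 times in the OMD window, 1 time in the ASPN window and not in the OGN window, and was present in 10.9% of the 19544 promoters cut the same way. Neither the palindromic EBF motif nor TGANTCA, a motif of AP-1 factors, matched in these windows on either strand. They were present in 1.07% and 6.07% of all promoters.

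The libraries held 50110370 to 71091640 UMIs, and 6297 to 12173 barcodes passed in each. In E16-ZZ 39.2% of barcodes failed the mitochondrial limit, against 1.05% to 9.15% in the other libraries. Any pair of libraries shared at most 48 barcodes that passed and at most 3 barcodes of OGN+ cells. Between 13.3% and 34.1% of the OGN+ cells of a library held markers of muscle, nerve, endothelium, blood or epithelium, and no doublets were removed. The shares and the comparisons between groups of cells or stages were also computed without those cells.

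OGN+ cells were rare in the libraries of E16 and E18 and common at E28. They made up 2.73% of the barcodes that passed in E16-ZZ (172 cells), 0.934% in E16-DZ (99 cells), 2.71% in E18-ZZ (279 cells) and 2.11% in E18-DZ (218 cells). The share was 4.82% in E21-ZZ (560 cells), 7.09% in E21-DZ (723 cells), 27.4% in E28-ZZ (2981 cells) and 32.0% in E28-DZ (3899 cells). The 95% exact (Clopper-Pearson) interval was 2.34% to 3.16% in E16-ZZ and 26.6% to 28.3% in E28-ZZ, and covers counting error only. Every library of E21 and E28 was above every library of E16 and E18. The mean was 2.12% ± 0.842 (SD, n = 4) in the early libraries and 17.8% ± 13.9 (SD, n = 4) in the late ones, a difference of 15.7 percentage points. In the somite libraries alone the difference was 3.84 points.

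Within the cells that held COL1A2, the share with OGN was higher late as well. The barcodes that met every part of the rule but OGN, called COL1A2+ cells here, were 28.9%, 15.4%, 28.6% and 28.9% of the barcodes that passed in the early libraries (ZZ then DZ at E16, ZZ then DZ at E18, the order kept below). They were 20.7%, 30.1%, 42.4% and 45.5% in the late ones (ZZ then DZ at E21, ZZ then DZ at E28), with means of 25.4% and 34.7%. E16-DZ lay below the other early libraries. Within COL1A2+ cells, OGN was detected in 9.46%, 6.06%, 9.48% and 7.29% of the early libraries and in 23.3%, 23.5%, 64.7% and 70.3% of the late ones. That is 8.07% ± 1.69 against 45.5% ± 25.6 (SD, n = 4 each). The early cells were deeper, with a median of 7198.5 to 10024.5 UMIs per OGN+ cell at E16 and E18 against 3470 to 5380 at E21 and E28. With each cell thinned to 2000 UMIs, the share of COL1A2+ cells was 2.18% early and 38.3% late.

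**Figure D1:**
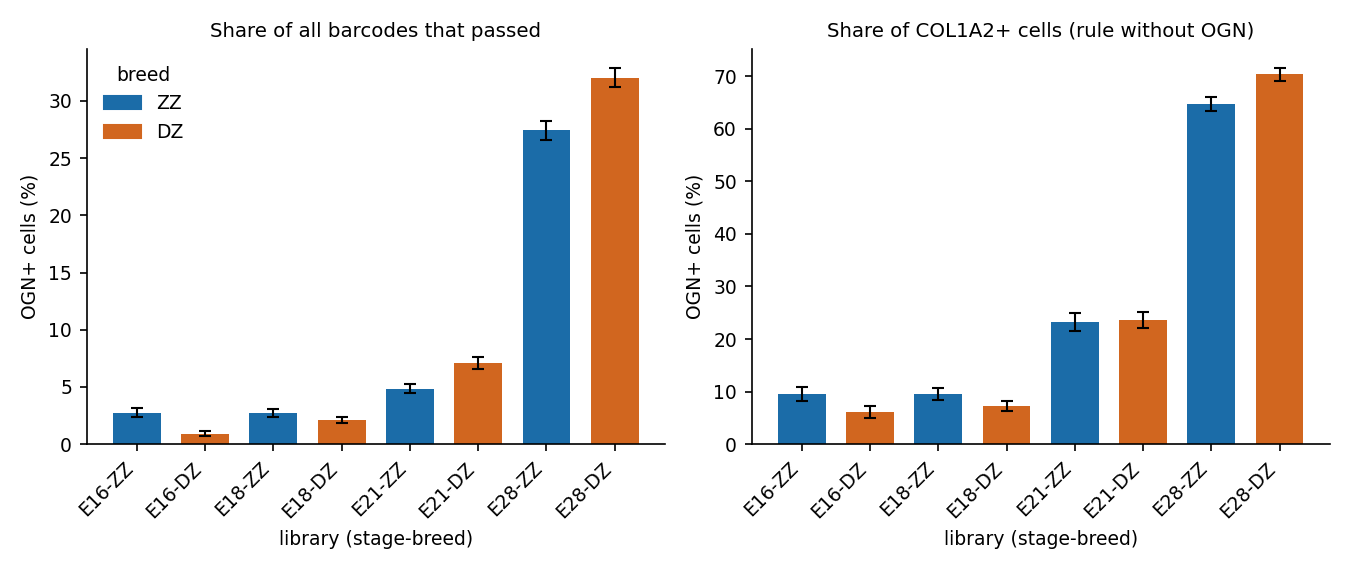
OGN+ cells as a percentage of all barcodes that passed (left) and of COL1A2+ cells (right), 1 bar per library with its exact 95% interval, in blue for ZZ and orange for DZ. The 4 libraries of E21 and E28 stand above the 4 libraries of E16 and E18 on both panels, and E28-DZ is highest at 32.0% and 70.3%.

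The early share was close to that of endothelial cells, which should lack OGN. OGN UMIs were found in 12.4%, 4.61%, 14.6% and 9.39% of endothelial cells (CDH5 with PECAM1 or KDR) in the early libraries, against 9.46%, 6.06%, 9.48% and 7.29% of COL1A2+ cells. The endothelial cells were deep, with a median of 8262 to 13858 UMIs over the libraries. Per 10000 UMIs the early COL1A2+ cells held 0.071 to 0.119 OGN UMIs and the endothelial cells 0.049 to 0.121. In E18-DZ, however, myocytes held OGN in 0.826% (1 of 121 cells, exact 95% interval 0.0209% to 4.52%), below the 7.29% (6.38% to 8.28%) of COL1A2+ cells at like depth (medians of 6098 and 6076 UMIs). In E18-ZZ myocytes held OGN in 5.48% (4 of 73 cells, exact 95% interval 1.51% to 13.4%). That interval covers the 9.48% of COL1A2+ cells there (medians of 7871 and 7547.5 UMIs). Background was thus not told apart from a low level of OGN in the early libraries, and no expression is read from them. Between 94.2% and 97.0% of the early OGN+ cells held a single OGN UMI.

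At E21 and E28 OGN in COL1A2+ cells was above its level in endothelial cells, neurons and myocytes. The OGN level per 10000 UMIs was 0.951 in E21-ZZ and 0.841 in E21-DZ in COL1A2+ cells. It was 0.152 and 0.103 in endothelial cells, 0.159 and 0.138 in neurons and 0.212 and 0.212 in myocytes. At E21 an OGN UMI was held by 11.4% and 14.3% of endothelial cells, 5.84% and 5.93% of neurons and 11.3% and 9.20% of myocytes. In COL1A2+ cells the share was 23.3% and 23.5%. How many OGN+ cells of E21 held background OGN alone was not tested. At E28 the level in COL1A2+ cells was 9.23 in ZZ and 10.3 in DZ. It was 0.338 and 0.288 in endothelial cells, 0.340 and 0.746 in neurons and 1.31 and 1.63 in myocytes. Of the OGN+ cells, 60% and 61% at E21 and 21.7% and 17.1% at E28 held a single OGN UMI. No early cell held 6 or more, whereas 42.4% of OGN+ cells in E28-ZZ and 42.5% in E28-DZ did.

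OGN was not particular to cells that the rule kept. Per 10000 UMIs, all barcodes that passed, COL1A2+ cells included, held 0.728 and 0.816 OGN UMIs at E21 (ZZ then DZ). That is near the 0.951 and 0.841 of COL1A2+ cells. At E28 the level was 9.16 and 10.3 in all barcodes and 9.23 and 10.3 in COL1A2+ cells. OGN was detected in 67.5% of all barcodes that passed in E28-ZZ and in 71.4% in E28-DZ, near the 64.7% and 70.3% of COL1A2+ cells. Of these OGN-positive barcodes the rule kept 40.6% and 44.9%. It dropped 17.2% and 23.1% for too few COL1A2 UMIs, and 26.4% and 17.1%, 14.3% and 7.35%, and 14.4% and 14.6% held MATN4, TNMD and ZIC4, the reasons overlapping.

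**Figure D2:**
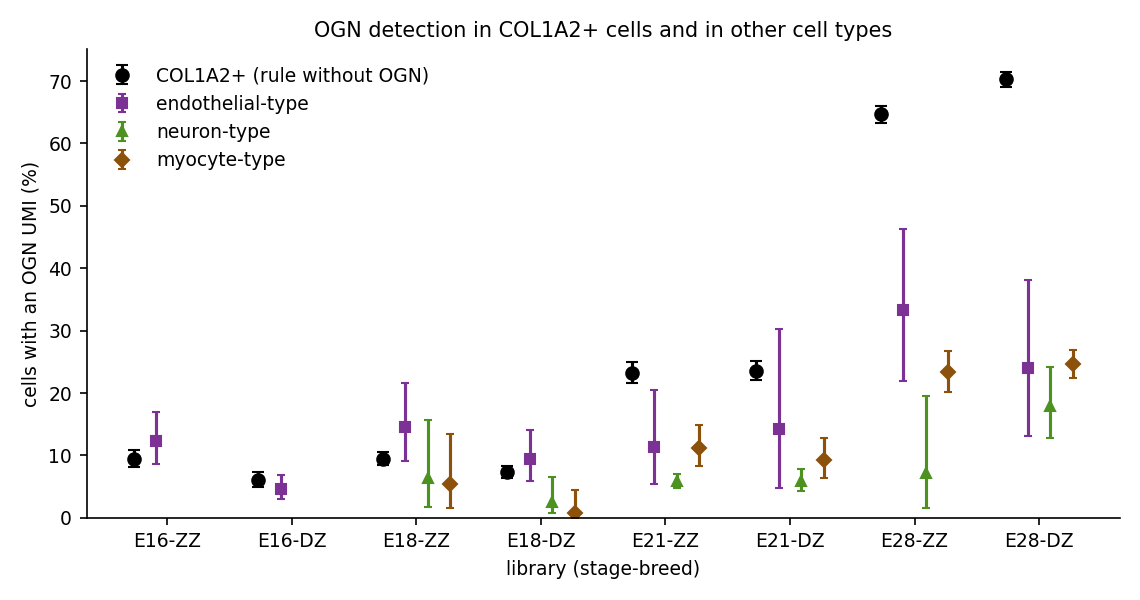
Percentage of cells with an OGN UMI in COL1A2+ cells (black) and in endothelial, neuron and myocyte cells of the same library (groups of under 20 cells left out), with exact 95% intervals. COL1A2+ cells lie within or near the endothelial intervals at E16 and E18 and far above all 3 other types at E28, at 64.7% and 70.3%.

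The other markers of this population were given with its label. They were chosen with earlier results of these data known, so their values describe the cells and are no independent check of the label. SFRP2 encodes a secreted WNT antagonist, EBF2 a transcription factor of mesenchymal and fat precursors, and CXCL12 a chemokine that guides migrating cells. At 2000 UMIs per cell, SFRP2 was detected in 4.07%, 4.08%, 7.89% and 5.99% of OGN+ cells in the early libraries and in 13.0%, 12.2%, 49.2% and 58.8% in the late ones. EBF2 was detected in 0.581%, 1.02%, 2.15% and 4.15% of early and in 17.2%, 16.4%, 27.4% and 41.2% of late OGN+ cells. CXCL12 went another way, with 9.30%, 9.18%, 21.5% and 20.3% early, 38.3% and 30.7% at E21 and 25.5% and 25.1% at E28. None of these markers was seen in 86.0%, 86.7%, 71.3% and 73.3% of early OGN+ cells, in 48.5% and 51.9% at E21 and in 28.9% and 20.3% at E28. At least 1 of the 3 was seen in 71.1% (ZZ) and 79.7% (DZ) of OGN+ cells at E28, against 59.2% and 62.9% of COL1A2+ cells, 52.4% and 59.8% of all barcodes that passed, and 6.67% to 23.1% of endothelial cells, neurons and myocytes. At E21 it was 51.5% and 48.1%, against 46.0% and 42.8% of COL1A2+ cells, 34.6% and 37.7% of all barcodes, and 5.71% to 15.4% of those other types. COL1A2+ cells and all barcodes include the OGN+ cells, so the remaining cells lie further from the OGN+ cells than these values. The markers were more frequent in OGN+ cells but not particular to them. At E16 and E18 the share was 13.3% to 28.7%, close to the 16.1% to 27.6% of all barcodes that passed. The early cells also differed in that the summed level of 9 epithelial genes was 2611 to 11948 CPM (counts scaled by edgeR to a common library total) in OGN+ cells against 9.26 to 230 CPM at E21 and E28. Most of this sum was KRT8 and KRT18, keratins of simple epithelia. KRT8 was at 7795, 4213, 2820 and 1802 CPM in the early OGN+ cells, and KRT18 was at 3973, 2011, 1430 and 774 CPM early and at 42.6, 41.3, 9.37 and 1.67 CPM late. CLDN6, an epithelial claudin, was at 128, 92.7, 56.9 and 33.4 CPM early and at 0.179 to 5.40 late. EPCAM, an epithelial adhesion gene, was at 19.4 and 30.6 CPM at E16 and 6.24 and 1.08 at E18, against 0.717 to 2.88 late. CLDN4 was at 25.2 and 30.6 CPM at E16 and 2.20 and 0 at E18, against 0.465 to 4.91 late. CDH1 was at 0.539 to 5.87 CPM early and 0.0598 to 0.640 late, and KRT5 went the other way, at 0 early and at 0.657 to 7.05 CPM late.

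With all cells kept, marker levels went up with the number of OGN UMIs at E28. Per 10000 UMIs, SFRP2 was 1.56 (E28-ZZ) and 1.29 (E28-DZ) in COL1A2+ cells with OGN at 0, 3.54 and 4.60 in cells with 1 OGN UMI, just inside the rule, and 6.51 and 7.44 in cells with 6 or more. EBF2 was 0.474 and 0.445, then 1.23 and 1.76, then 1.86 and 2.80. CXCL12 was 1.00 and 0.631, then 1.62 and 1.28, then 3.50 and 2.86. Muscle markers moved with these classes, being held by 41.5% and 76.8% of the cells with OGN at 0 and by 9.36% and 12.6% of OGN+ cells. Without the cells that held other cell types' markers, an alternative chosen after the data were seen, SFRP2 in E28-ZZ was 3.26, 5.92 and 6.94 in cells with 0, 1 and 6 or more OGN UMIs. In E28-DZ it was 8.34, 9.53 and 8.18, so the gradient of SFRP2 was not seen there. These E28-DZ classes held 321, 375 and 1431 cells. Leaving out the other cells had removed 80.5% of its OGN-negative and 19.8% of its OGN+ cells. EBF2 was 1.04, 2.01 and 1.85 in E28-ZZ and 2.85, 3.49 and 2.87 in E28-DZ. CXCL12 kept its gradient in both, at 0.994, 1.97 and 3.23 in E28-ZZ and 1.68, 1.92 and 3.03 in E28-DZ. At E21 CXCL12 had no such gradient, at 4.54, 4.79 and 2.83 in ZZ and 3.46, 3.56 and 2.24 in DZ. Only 29 and 35 cells held 6 or more OGN UMIs there. EBF2 and SFRP2 were seen together, since EBF2 was detected in 31.4% of SFRP2-positive and 23.5% of SFRP2-negative OGN+ cells in E28-ZZ, and in 47.6% and 32.0% in E28-DZ. CXCL12 went the other way with SFRP2, which was detected in 45.1% of CXCL12-positive and 50.6% of CXCL12-negative OGN+ cells in E28-ZZ and in 53.4% and 60.6% in E28-DZ. EBF2 was in 30.4% and 26.4% of them in E28-ZZ and in 39.3% and 41.8% in E28-DZ. These are values within libraries that share their depth, and no test was made.

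Because OGN in the early cells was not told apart from background, the stages were compared between E28 and E21. The share of OGN+ cells with background OGN alone was not tested and may differ between these stages. UMI counts were summed over the OGN+ cells of each library, which gave 1 value per gene and library in CPM. Values printed from here on are CPM of OGN+ cells in the order ZZ and DZ of E21, then ZZ and DZ of E28, unless said otherwise. edgeR's quasi-likelihood test with breed in the fit had 1 residual degree of freedom. It called 351 genes higher and 162 lower at E28 of 12097 tested, at a Benjamini-Hochberg adjusted p under 0.05, so 4.24% of all genes tested were called (2.9% higher, 1.34% lower), and the median log2 fold change of all tested genes was 0.0070. With 1 library left out, the 3 that remained could not carry a breed term as well, so these fits had stage alone, which with all 4 libraries called 284 genes. In them, without E21-ZZ no gene was called and 2225 had an unadjusted p under 0.05 (DESeq2 on all 4 libraries called 376), without E21-DZ 5 genes were called, and without E28-ZZ 909. Without the cells that held markers of other cell types 1499 genes were called, among them 498 of these 513. The rule asked for 3 COL1A2 UMIs at any depth, and OGN+ cells of E28 were shallower (medians of 3782 and 3470 UMIs against 4479 and 5380 at E21). With cells chosen after thinning to 2000 UMIs, 355 genes were called, among them 247 of the 513.

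SFRP2 and EBF2 rose between E21 and E28 and CXCL12 did not pass the test. SFRP2 was at 55.4, 61.4, 576 and 654 CPM (log2 fold change 3.36 ± 0.20 SE, edgeR quasi-likelihood adjusted p = 0.00108). EBF2 was at 80.7, 85.2, 174 and 250 CPM (1.30 ± 0.19, edgeR adjusted p = 0.0164). CXCL12 was at 349, 342, 272 and 214 CPM (-0.55 ± 0.19, edgeR adjusted p = 0.155). In the early OGN+ cells, by contrast, SFRP2 was at 21.1 to 41.5 CPM, EBF2 at 1.17 to 16.2 and CXCL12 at 63.9 to 161.

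**Figure D3:**
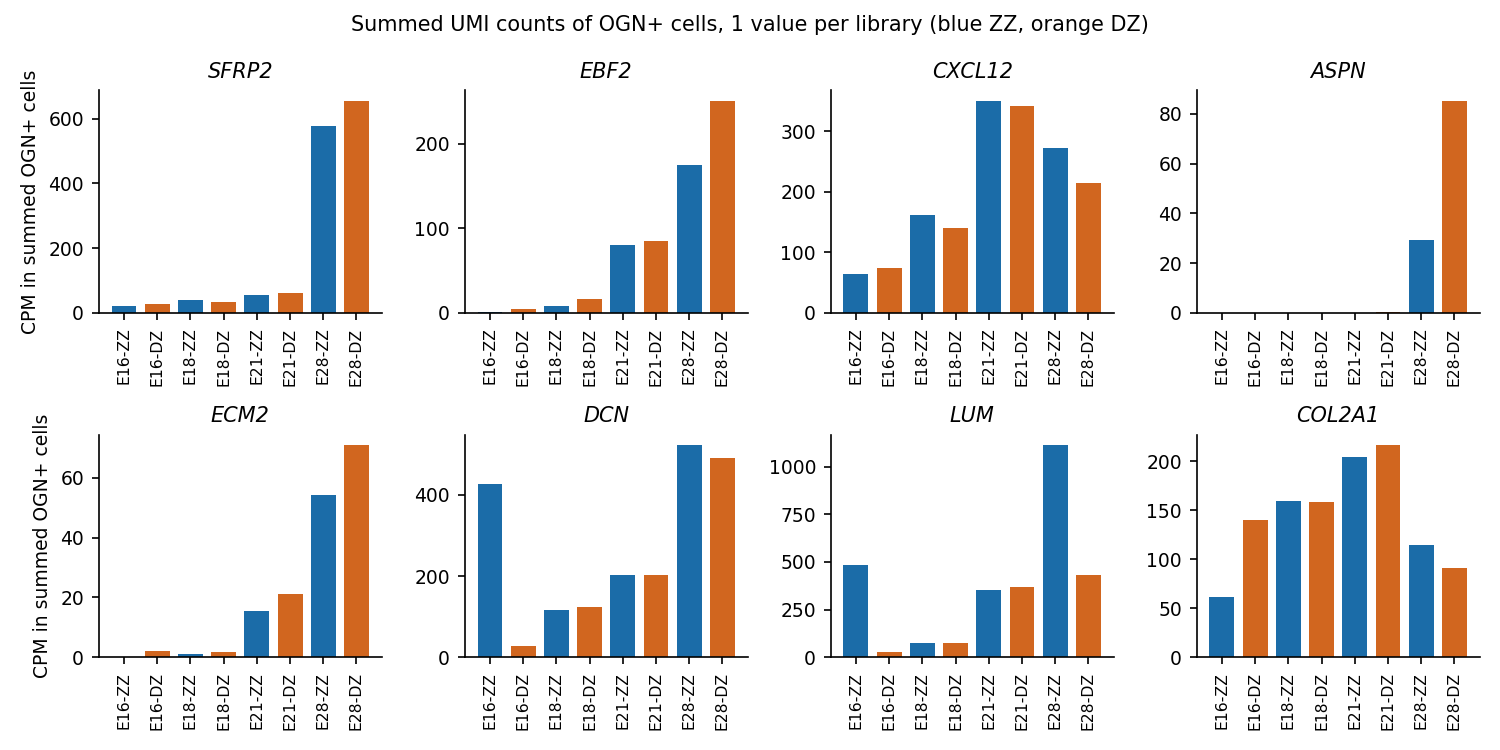
CPM of 8 genes in the summed OGN+ cells, 1 bar per library (blue ZZ, orange DZ). SFRP2, EBF2, ASPN and ECM2 are highest in both E28 libraries, CXCL12 and COL2A1 are highest at E21, and LUM is high in E28-ZZ alone among the late libraries.

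Of the neighbours of OGN, ASPN and ECM2 were called higher at E28, and OMD, CENPP, NOL8 and IPPK were not called. Differences between the neighbours were not tested. ASPN, which encodes a proteoglycan that binds collagen and TGF-beta, was at 0, 0.246, 29.2 and 85.1 CPM. That is 1 UMI at E21 and 1801 at E28, a ratio of levels of 454 with a counting interval of 81.4 to 17940. The fitted log2 fold change of 8.63 depends on the prior count, so no SE is given for it (edgeR adjusted p = 0.00108). ECM2, a matrix protein gene, rose from 15.4 and 21.1 to 54.4 and 70.9 CPM (1.75 ± 0.18, edgeR adjusted p = 0.00607). OMD, known from bone, was at 3.52, 4.17, 3.25 and 1.02 CPM, with E28-ZZ close to the E21 libraries (-1.09 ± 0.61, edgeR adjusted p = 0.375). CENPP, which spans the cluster, and NOL8 and IPPK, on its sides, did not pass the test, with log2 fold changes of -0.22, 0.09 and 0.45. OGN itself, used by the rule, was at 359, 357, 1442 and 1428 CPM.

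**Figure D4:**
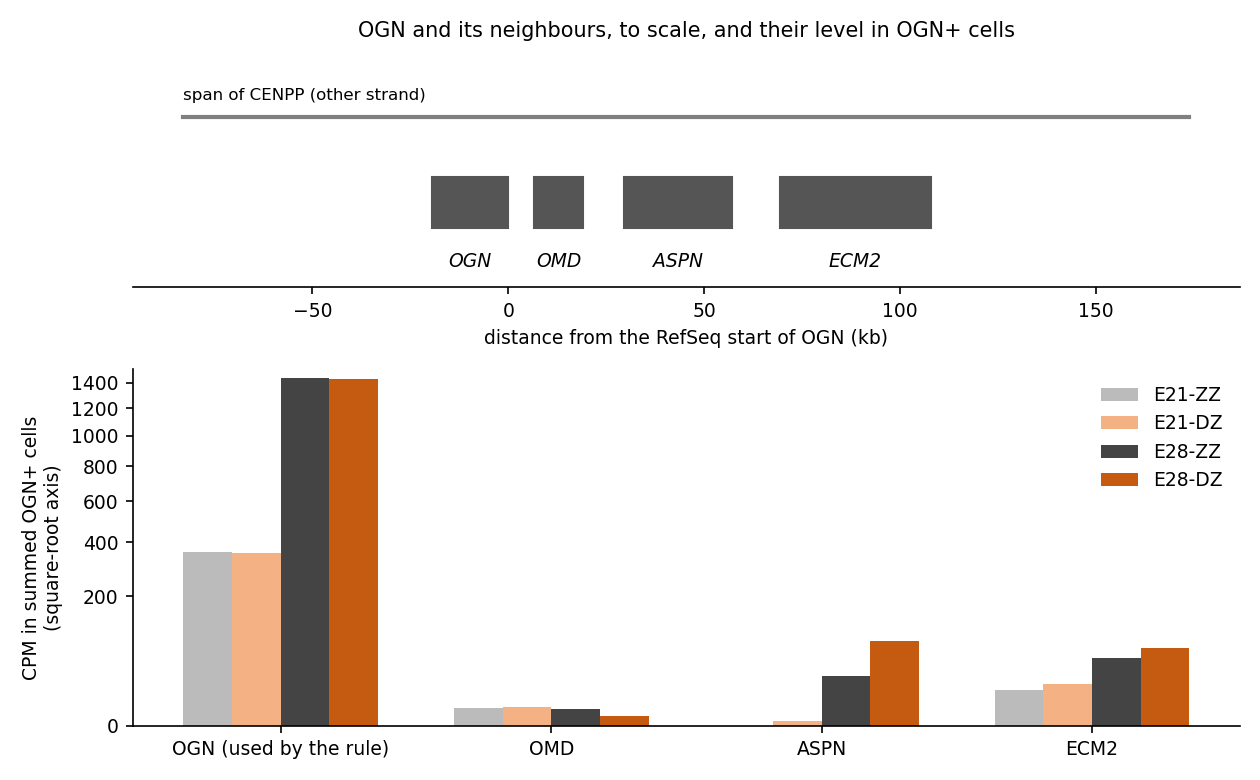
Map of OGN and its neighbours to scale, in kb from the start of OGN, above their CPM in summed OGN+ cells of the 4 late libraries on a square-root axis. ASPN and ECM2 are higher at E28 than at E21 in both breeds, at 29.2 and 85.1 CPM for ASPN, while OMD stays under 5 CPM.

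Some genes of each matrix list rose at E28 and none fell, where 2.9% of all genes tested were called higher and 1.34% lower. Of 10 small leucine-rich proteoglycan genes tested, 4 rose and none fell, with a median log2 fold change of 1.06. Besides ASPN and ECM2 these were DCN (decorin), at 202, 202, 522 and 492 CPM (1.30), and FMOD (fibromodulin), at 49.3, 43.2, 93.0 and 129 CPM (1.22). LUM (lumican) was at 355, 369, 1112 and 432 CPM, so that E28-ZZ stood apart from the other 3 libraries and the test was not passed (0.90 ± 0.34, edgeR adjusted p = 0.193). Of 20 collagen genes 8 rose and none fell (median 1.05). Of the 8, those with the highest mean CPM were COL1A1 (1.93), the other chain of type I collagen, COL6A1 (2.34) and COL5A1 (1.45), which takes part in starting fibrils. COL1A1 was at 220, 268, 958 and 938 CPM and COL6A1 at 62.4, 45.4, 298 and 254 CPM. Of 35 elastic fibre and matrix glycoprotein genes 13 rose and none fell (median 0.88). They included SPARC (1.49) and POSTN (1.56), which bind collagen, THBS4 (3.48), a thrombospondin of tendon and muscle attachments, and FBLN5 (3.59), which organises elastic fibres, at 3.84, 6.14, 58.9 and 65.0 CPM. Of 21 collagen-processing enzymes 5 rose and none fell (median 0.46), PCOLCE (0.91) and PLOD1 (1.19) among them.

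Transcription factors of connective tissue moved in both directions, with 12 of 42 higher and 5 lower (median 0.46). NFIB was at 73.6, 91.1, 240 and 312 CPM (1.71), EBF3 rose by 1.66 and NFIA by 1.43 on the log2 scale. NR2F1 (-1.44) and TBX3 (-1.99) fell. Of 12 cartilage genes none rose and 5 fell (median -0.62). COL2A1, the collagen of cartilage, was at 204, 216, 115 and 90.9 CPM (-1.07), and SOX9, the factor that drives chondrocytes, at 77.8, 61.6, 42.3 and 30.7 CPM (-0.97). PAX1 (-1.95), a sclerotome factor, COL9A1 (-0.77) and SOX5 (-1.77) were the others. Of 11 tendon genes 5 rose and 1 fell (median 1.14), with FIBIN (1.59), FMOD (1.22) and EGR1 (1.27) among the risen and CILP (-3.00) the fallen. EGR1 is also an immediate-early gene, and of 17 immediate-early and dissociation genes 4 rose and none fell (median 0.61), the others being KLF6 (0.80), KLF2 (2.20) and KLF4 (1.98). KLF4 also counts among the transcription factors. KLF4 and KLF2 were higher at E28 within both breeds, KLF2 at 8.00, 42.2, 19.9 and 281 CPM. Without E28-DZ and the breed term, which sets E28-ZZ against both breeds of E21, KLF2 was at -0.41 and KLF4 at -0.13. SCX, the tendon progenitor factor, was at 0.538 CPM or below in all 8 libraries. Of 9 bone genes tested none was called (median -0.49). RUNX2, the osteoblast factor, was at 1.6, 7.37, 11.3 and 7.35 CPM (edgeR adjusted p = 0.388), and SP7 at 0, 0, 0 and 0.0598 CPM.

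Most signalling genes tested did not pass the test. Of 27 WNT genes 5 rose and 1 fell (median 0.12). The antagonist DKK2 was at 40.3, 28.5, 185 and 222 CPM (2.55), SFRP1 rose by 1.08 and RSPO3, which enhances WNT signals, by 1.12, while SFRP5 fell by 2.11. Of 32 BMP and TGF-beta genes 6 rose and none fell (median 0.38), including FST (2.04), which binds activins, and the receptors TGFBR2 (1.59) and TGFBR3 (1.41). Of 48 growth factor genes 7 rose and 2 fell (median 0.25), with PTN (1.43) and the platelet-derived growth factor receptor PDGFRA (1.26) higher and FGF13 (-1.48) lower. Of 35 cell cycle genes none rose and 13 fell (median -0.77). Of the 13, those with the highest mean CPM were TOP2A (-1.06), at 597, 621, 329 and 273 CPM, and CENPF (-1.18).

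Among single genes with at least 50 CPM in the higher stage, the largest increases besides those named above were ALDH1A1 (5.61), which makes retinoic acid, CAVIN1 (4.33), ENPP6 (3.79), MSC (2.90), SYT3 (2.82), SPARCL1 (2.78), DMRT2 (2.70) and CREB5 (2.57). The largest decreases were COL25A1 (-2.48), at 92.5, 86.4, 21.8 and 12.2 CPM, PLVAP (-2.31), HOXB9 (-2.05), AIF1L (-2.0), NPY (-1.94), HMGA1 (-1.56), FABP3 (-1.45) and IGDCC4 (-1.44). HOXB9 was the only called gene of 24 HOX genes. MSC and PAX7 (1.23) were also the 2 called of 15 skeletal muscle genes. The summed level of those muscle genes in OGN+ cells was 1887, 987, 1290 and 2543 CPM, and 21.3%, 13.3%, 22.9% and 19.8% of the late OGN+ cells held a marker of some other cell type. The part of those cells in these calls was measured only by leaving them out, as given above.

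At E21 and E28 the genes called between breeds included stress and immediate-early genes. In the same fit, 9 of 12097 genes (0.0744%) were higher and none lower in DZ than in ZZ. KLF4 was at 3.84, 28.2, 15.6 and 113 CPM, so the DZ library was above the ZZ library at E21 and at E28 (log2 fold change 2.87 ± 0.20, edgeR adjusted p = 0.0095). ATF3, a stress-response factor, was at 9.92, 65.8, 8.83 and 137 CPM (3.47), and FOSB at 61.8, 298, 70.7 and 389 CPM (2.37). The others were KLF2 (3.33), IRF1 (3.57), MAFF (2.66), FILIP1L (2.43), CCDC173 (2.67) and SLC25A25 (1.97). Of 17 immediate-early and dissociation genes 4 rose (median 1.25, against 0.0045 over all genes), and their summed level was 2448, 2906, 3110 and 7300 CPM. The early pairs were outside this fit. At E16 the order was reversed, with KLF4 at 29.3 CPM in ZZ and 15.8 in DZ, ATF3 at 282 and 104, FOSB at 223 and 130 and the summed level at 5884 and 4123. At E18 KLF4 was at 1.83 and 11.3, ATF3 at 30.4 and 37.8, FOSB at 19.4 and 59.9 and the summed level at 2417 and 2765, higher in DZ. Such genes also respond to tissue dissociation, whose part in the result was not tested. SFRP2, EBF2, CXCL12, ASPN and ECM2 were not called between breeds. With breed alone in the fit, as 3 libraries require, no gene was called even with all 4 libraries (216 at an unadjusted p under 0.05). In such fits no gene was called without E21-DZ, E28-ZZ or E28-DZ (493, 228 and 446 genes at an unadjusted p under 0.05; DESeq2 on all 4 libraries called 29), and none of the 9 remained without E21-ZZ.

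OGN+ cells were then compared with the COL1A2+ cells of the same library in which OGN was 0, with the library as a block. Cells at 0 can hold OGN RNA that was not sampled. In the 4 early libraries, where OGN was not told apart from background, a split by OGN cannot be told apart from a split by background RNA, and the fits below in the late libraries leave them out. Over all 8 libraries 28 genes were higher (0.214%) and 145 lower (1.11%) in OGN+ cells of 13083 tested (1.32% called). The lower genes were led by muscle: 11 of 15 skeletal muscle genes fell and none rose (median -1.69 against -0.02 over all genes), including MYH3 (-2.05), an embryonic myosin, and MYMK (-2.12), the factor of myoblast fusion. Muscle markers moved with the classes, since 41.5% (E28-ZZ) and 76.8% (E28-DZ) of OGN-negative cells held them against 9.36% and 12.6% of OGN+ cells. The higher genes included NIBAN1 (1.6), CHODL (1.53), GAS2 (1.00), LRIG3 (0.72), HOXA7 (0.77) and LIMCH1 (0.46). The neighbours ASPN (3.63) and ECM2 (1.49) were higher too, as was PRELP (2.80), another leucine-rich proteoglycan gene. In OGN+ cells ASPN held at most 1 UMI in any library before E28. PRELP held 0 UMIs in the early libraries and was at most 9.82 CPM in the late ones. SFRP2 (0.81 ± 0.28, edgeR adjusted p = 0.227) and EBF2 (1.08 ± 0.29, edgeR adjusted p = 0.105) did not pass. Without E28-ZZ 63 genes were called.

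The comparison was repeated in the 4 late libraries without the cells that held markers of other cell types, an alternative chosen after the data were seen. With all cells, the late libraries gave 55 genes higher (0.438%) and 194 lower (1.55%) of 12548 (1.98% called). Without the cells with other markers there were 163 genes higher (1.41%) and 152 lower (1.31%) of 11584 (2.72% called), and only 34 of them were among the 173 above. Of 8 skeletal muscle genes tested 4 were still lower in OGN+ cells and none higher (median -0.69), namely TNNT1, MSC, PAX7 and PAX3. These 4 were not among the markers used to remove cells. How many cells of the muscle lineage remained in the OGN-negative class was not tested. Values are CPM in the same library order, first in OGN+ and then in OGN-negative cells. MEOX2, a homeobox factor of somite derivatives, was at 70.8, 64.2, 140 and 178 against 31.1, 31.8, 66.4 and 90.3, so that OGN+ cells were higher in all 4 libraries (1.06 ± 0.07, edgeR adjusted p = 1.71e-05). COL9A1 was at 136, 108, 77.1 and 62.3 against 36.1, 37.2, 20.2 and 46.5 (1.57). ECM2 was at 17.9, 25, 63.3 and 86.6 against 8.97, 12.6, 22.7 and 34.7 (1.23). ASPN (2.95), PRELP (3.20) and FMOD (0.89) were higher and LUM (-0.46) was lower, so 4 of 11 leucine-rich proteoglycan genes were higher and 1 lower. SFRP2 (0.54 ± 0.12, edgeR adjusted p = 0.032) and EBF2 (0.49 ± 0.10, edgeR adjusted p = 0.0163) were higher by small amounts, and CXCL12 was not called (0.43, edgeR adjusted p = 0.312).

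In this comparison without cells holding other markers, the cartilage and tendon genes called were all higher in OGN+ cells, and most called WNT genes lower. With all cells of the late libraries kept, 4 of 12 cartilage and 3 of 11 tendon genes were higher and none lower, none of 28 WNT genes (median -0.0078) or 12 dermal genes was called, and 3 of 43 transcription factors were higher and 2 lower. The WNT and dermal calls thus rest on leaving those cells out. Of 12 cartilage genes 6 were higher and none lower (median 0.91 against -0.0020 over all genes), including COL2A1 (0.86), SOX9 (1.06) and SOX6 (1.49), although the rule removed cells with MATN4 or ACAN. Of 11 tendon genes 6 were higher and none lower (median 0.76), including TNC (1.35), THBS4 (1.12) and FIBIN (0.76). Of 28 WNT genes 1 was higher and 8 lower (median -0.25), the lower ones including the antagonist DKK2 (-0.44), the ligand WNT11 (-0.65), and APCDD1 (-1.56) and NKD1 (-1.47), which restrain WNT signals. Of 11 dermal fibroblast genes 1 was higher and 4 lower, with CRABP1 (-0.62), a retinoic acid binding protein, among them. Transcription factors were split, with 6 of 41 higher and 8 lower, such as PRRX1 (-0.81) and EN1 (-0.88). The largest other differences were NIBAN1 (1.43), COL25A1 (1.18), CHODL (1.09), PENK (1.00) and MEST (0.98) in 1 direction and MSC (-2.89), C1QTNF3 (-2.0), CXCL14 (-1.90), COL21A1 (-1.51), ADAM22 (-1.42), TMEM132C (-1.12), GXYLT2 (-1.01), MGP (-0.96) and TNNT1 (-0.95) in the other. No bone gene of 9 was called.

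**Figure D5:**
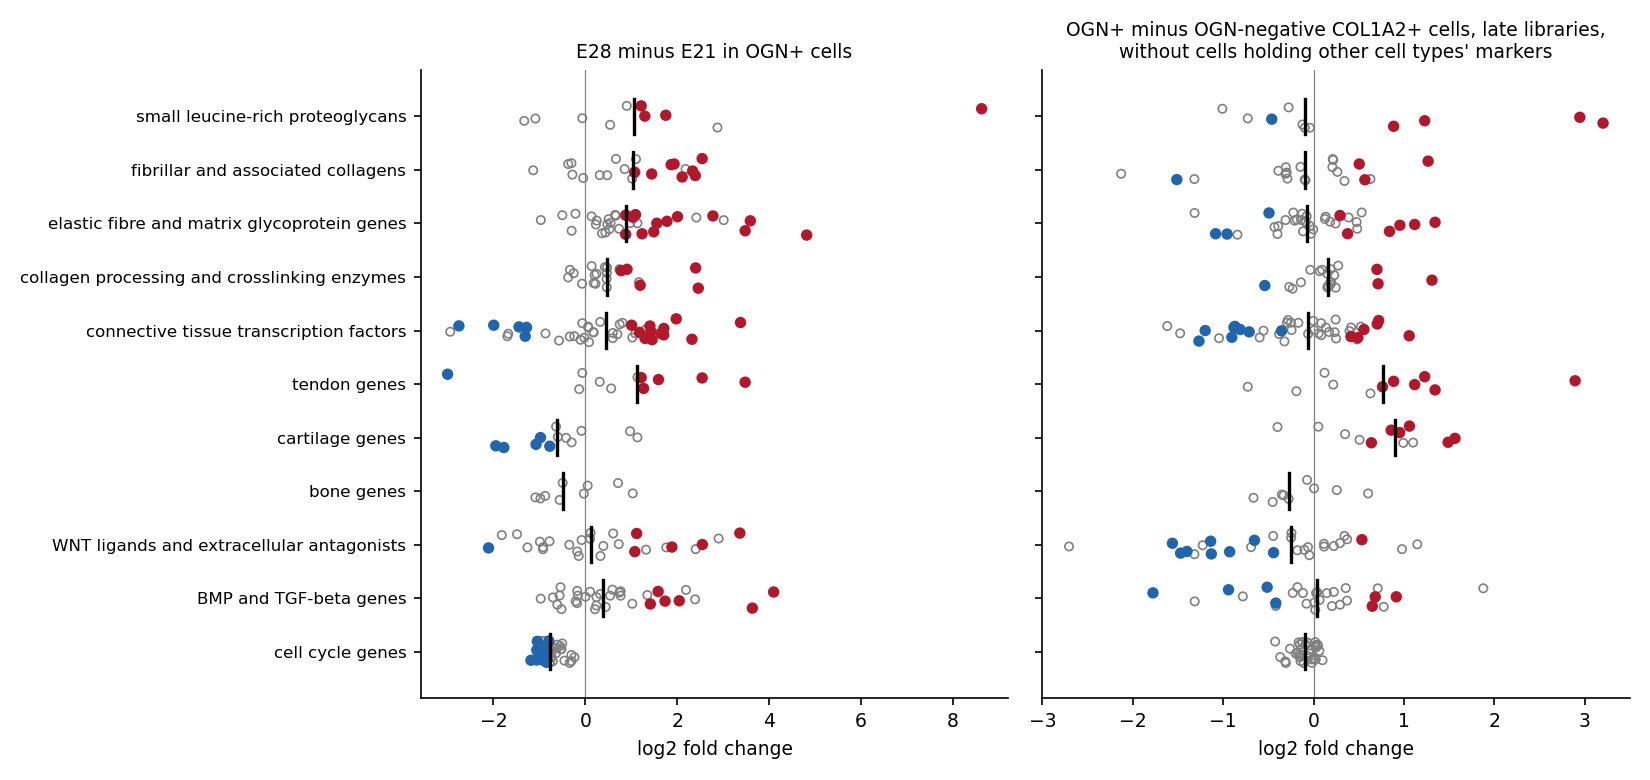
log2 fold changes of single genes by list, at E28 minus E21 in OGN+ cells (left) and in OGN+ minus OGN-negative cells of the late libraries without cells holding other cell types' markers (right). Filled points passed the edgeR test (red higher, blue lower), open points did not, and the bar is the list's median. Of 12 cartilage genes 5 fell at E28 (median -0.62) and 6 were higher in OGN+ cells (median 0.91).

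TNMD+ cells, which met the rule but for TNMD at 1 UMI or more and with OGN free to vary, were the other class compared. There were 120, 115, 538 and 341 of them in the late libraries, and 32.5%, 31.3%, 56.3% and 87.4% of them also held OGN. Only 20 of 10950 genes differed (0.183% called), 10 in each direction (0.0913%). KRT8, an epithelial keratin, was higher in OGN+ cells, at 185, 146, 60.3 and 3.72 CPM against 7.89, 31.6, 7.5 and 3.58 (2.83 ± 0.31, edgeR adjusted p = 0.0114). The other higher genes included ALDH1A1 (2.0), EPHA3 (0.93), EPHA4 (0.73), MEST (0.63), SMARCA2 (0.70), BOC (0.54), LOXL4 (1.89) and ALKAL2 (1.25), and 1 had no symbol. The lower genes were CRABP1 (-0.76), ROBO2 (-0.80), TENT5A (-1.52), FNDC1 (-1.15), COL21A1 (-1.09), CDH11 (-0.48), ACTN1 (-0.70), NKD1 (-0.85), STEAP1 (-1.41) and PRSS35 (-1.05). ASPN (-1.02), ECM2 (0.08), OMD (-0.56), EBF2 (0.55), SFRP2 (0.37) and CXCL12 (-0.28) did not pass the test. Without E28-DZ 2 genes were called and without E21-DZ 44.

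The E28 to E21 difference itself differed between OGN+ and OGN-negative cells for 375 of 12548 genes (2.99%), 194 (1.55%) with a higher and 181 (1.44%) with a lower signed difference (E28 minus E21) in OGN+ cells, by the interaction of stage and class in edgeR's test. It was higher for SFRP2 (1.57), EBF2 (1.61), CXCL12 (1.45) and EBF1 (2.69), and lower for the myogenic factors MYOD1 (-1.76) and MYF5 (-1.69). Without the cells holding other cell types' markers 49 genes were called, and the interaction was 0.07 for SFRP2 (edgeR adjusted p = 0.977) and 0.08 for EBF2 (edgeR adjusted p = 0.956), so both calls were lost without those cells. It was 1.13 for CXCL12 (edgeR adjusted p = 0.00623). For CXCL12 the higher value stands for a smaller decrease. With all cells, its mean went from 355 to 246 CPM in OGN+ cells and from 328 to 84.4 CPM in OGN-negative cells. Without E21-ZZ no gene was called (1441 at an unadjusted p under 0.05; DESeq2 on all 4 libraries called 264), without E21-DZ 101, without E28-ZZ 3990 and without E28-DZ 1316.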

How the data were processed

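The authors aligned reads to Sscrofa11 (Ensembl release 98 annotation, 10x Genomics 3′ v3 kit) with Cell Ranger and deposited 1 matrix of raw UMI counts per library (whole numbers per gene and barcode, 21301 genes). Per the file headers Cell Ranger was 3.1.0 for E16 and 3.0.2 for the other stages, so version and stage cannot be told apart at E16. No columns of other series were found (0). The matrices carried no cell type calls.

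The cells and gene lists were chosen with earlier results of these data known. Barcodes were filtered and chosen as stated, UMI counts were summed per library and class (at least 20 cells per sum), and tested in R 4.3.3 with edgeR 4.0.16 (filterByExpr, TMM, glmQLFit and glmQLFTest, Benjamini-Hochberg at 0.05 over all genes tested, the 6 rule genes left out). CPM are edgeR's scaled counts on TMM library sizes, over the 8 libraries for OGN+ cells by themselves and over the libraries of the fit where 2 classes are compared. In the fits without cells holding other cell types' markers, the markers used to remove those cells were left out of the tested genes as well. The SE of a log2 fold change is its absolute value divided by the square root of the F statistic of edgeR's test. Exact intervals of shares were from scipy 1.17.1. The permutation tests planned for the shares are not reported, since the genes of the rule set the shares. Symbols were missing for 5778 genes. Genes were named by rule: the rule genes and markers, the neighbours of OGN, the 12 with a symbol of largest change in each direction past the threshold with at least 50 CPM in the higher group, and the called list members of highest mean CPM. LUM, SCX, RUNX2, SP7, KRT18, and those under 50 CPM of the 20 genes that differed from TNMD+ cells were named after their values were seen.

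The tests were tried on simulated counts. For E28 against E21, 23% of 100 genes changed 2-fold and 88% of 100 changed 4-fold were recovered among 11892 genes, so many changes of 2-fold would be missed. Alternatives were DESeq2 1.42.0, its size factors in edgeR, no filter, a mitochondrial limit of 5%, OGN at 2 UMIs or more, COL1A2 at 1 UMI or more, Scrublet (scanpy 1.11.5) at 0.8% per 1000 barcodes, thinning to 2000 UMIs, fewer covariates and each library left out. Leaving out cells with other cell types' markers, and the fits on fewer libraries or stages, were chosen after the data were seen.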

Additional observations from a re-analysis of the deposited data

Results flagged for a closer look

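Among the 4 early libraries, the COL1A2+ share of barcodes that passed was 15.4% in E16-DZ and 28.6% to 28.9% in the others. The gap to the nearest library was 0.974 of the whole range. The 4 libraries span E16 and E18 and both breeds and are not replicates, so no outlier test is read from it. The genes of the rule set this share, so it is a description of how the libraries lie.

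The difference between E28 and E21 was itself different in OGN+ and OGN-negative COL1A2+ cells for 375 genes by the interaction term of edgeR's quasi-likelihood test. On the log2 scale, the interaction was 5.47 for ASPN, 2.69 for EBF1, 2.44 for COL14A1, 2.34 for CLDN11, 2.32 for THBS4 and 2.28 for B2M. It was 2.16 for DMRT2, 2.16 for TGFBI, 2.13 for MECOM, 2.12 for RFTN1, 2.10 for DHRS3 and 2.07 for KRT8. Among the markers it was 1.61 for EBF2, 1.57 for SFRP2 and 1.45 for CXCL12.

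The stage difference was lower in OGN+ cells for genes of muscle and its precursors and for others, by -2.39 for RXRG, -1.91 for FGFR4, -1.89 for NGFR, -1.84 for NRK, -1.77 for MSC and -1.76 for MYOD1. It was -1.71 for FGF13, -1.71 for MOXD1, -1.69 for MYF5, -1.64 for LFNG, -1.60 for DES and -1.58 for VGLL3. In OGN-negative cells at E28, 41.5% (E28-ZZ) and 76.8% (E28-DZ) held muscle markers.

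Without cells that held other cell types' markers, EBF1 (1.37, edgeR adjusted p = 0.0207), COL14A1 (1.84), TGFBI (1.01), DMRT2 (1.35), DHRS3 (1.28), KRT8 (1.94), CXCL12 (1.13) and RXRG (-2.27) stayed past the threshold. The calls of ASPN (4.48, edgeR adjusted p = 0.336), EBF2 (0.08), SFRP2 (0.07), CLDN11, THBS4, B2M, MECOM, RFTN1, FGFR4, NGFR, NRK, MSC, FGF13, MOXD1, LFNG, DES and VGLL3 were lost, so 17 of the 25 genes tested lost the call and 8 kept it. Some of the lost ones were as large as before, at -2.29 for FGFR4, -2.27 for NRK, -1.85 for NGFR and -1.65 for LFNG. MYOD1 and MYF5 were left out of the tested genes there, since they were among the markers used to remove cells. For CXCL12, KRT8 and MECOM the positive value stands for a smaller decrease in OGN+ cells. With all cells kept, KRT8 was at 174 and 140 CPM in OGN+ cells at E21 and at 58.8 and 3.59 at E28 (ZZ then DZ). MECOM was at 59.8 and 38.1 CPM, then at 18.0 and 24.4.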

How the results depend on the processing

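The OGN+ share difference kept its direction in every alternative run. With 1 library left out it was 11 to 20.1 points of all barcodes and 29.1 to 44.8 points of COL1A2+ cells. It was 3.84 and 15.3 points in the somite libraries alone, and 15.4 and 37.1 in E18, E21 and E28. These shares were not tested.

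For E28 against E21, 513 genes were called. There were 1168 without a filter, 355 thinned, 1499 without cells holding other cell types' markers, 284 with stage alone in the fit, and 0 to 909 with 1 library left out. For DZ against ZZ (9 genes) there were 29 with DESeq2, 97 without a filter, 16 at a mitochondrial limit of 5%, 64 with OGN at 2 UMIs, 114 thinned, 106 without other cell types' markers, 0 with breed alone (216 at an unadjusted p under 0.05) and 0 to 6 with 1 library left out. All 9 were called in each of these but the last 2, and the cause was not tested. For OGN+ against OGN-negative cells (173 genes) there were 100 with DESeq2, 319 at 5%, 541 with OGN at 2 UMIs, 735 thinned, 315 in the late libraries without other cell types' markers, and 63 to 202 with 1 library left out. For TNMD+ cells (20 genes) there were 281 without a filter, 37 at 5%, 63 with OGN at 2 UMIs, 31 thinned, 76 without other cell types' markers and 2 to 44 with 1 library left out. Only 4 of the 20 were among the 31 called when thinned. For the interaction (375 genes) there were 1168 without a filter, 198 without Scrublet doublets, 40 thinned, 49 without other cell types' markers and 0 to 3990 with 1 library left out.

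With 1 library left out, the stage and breed fits also lost their other term, so the library's part in their counts cannot be told apart from that of the term. Named genes turned direction in 6 cases. At E28 against E21 in such fits, KLF4 ran from -0.13 (without E28-DZ) to 4.02 (without E21-DZ) and KLF2 from -0.41 to 4.19 (the same libraries). ACTN2 was 0.064 without other cell types' markers and 0.020 in the late libraries without them, where MYL1 was 0.0057. MSC was 0.068 for the interaction when thinned. The labels give no replicate numbers. With all libraries, breed stood as a term in the stage fit, stage in the breed fit, and the library in the fits between classes. The breed and stage fits have 1 residual degree of freedom, and cells at 3470 to 5380 median UMIs miss OGN that is present at low level.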
